A study of Mus musculus with 4 samples.

Results

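The 10 genes described here belong to the outer epidermal barrier and were measured in mouse epidermis that had lost the transcription factor ΔNp63, against epidermis that kept it. They were chosen by name, and are 10 of the 32285 genes in each count matrix: Flg, Flg2, Hrnr, Rptn, Tchh, Lor, Ivl, Cnfn, Crct1 and Tgm1. The design asks how losing ΔNp63 from adult epidermis alters its stem cell programme and inflammation, and for these genes the comparison is ablated against control, 1 day and 1 week after ablation. Each of the 4 groups was 1 library of dissociated epidermal cells, read by droplet single-cell RNA sequencing.

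Control mice were DNp63fl/fl, that is, they carried ΔNp63 alleles flanked by recombination sites and no recombinase. Ablated mice were DNp63fl/fl;K14-CreT2 and also carried a tamoxifen-dependent Cre recombinase driven by the keratin 14 promoter, so the deletion starts in cells with that promoter active, the basal keratinocytes. All mice, controls included, received 200 mg/kg tamoxifen daily by gavage. The labels give ages of 2 to 17 months, both sexes, and digestion in 0.25% trypsin at 4 or 37 °C, without saying which applied to which library or how many mice went into each. The 1-day libraries used a 3′ kit (version 3.1) and the 1-week libraries a 5′ kit (version 1.1), so levels are compared only within a time point. With 1 library per group there is no replicate check and no test. Intervals below are exact 95% intervals and cover counting error only.

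The epidermis renews from a basal layer, and cells leaving it switch from the keratins Krt5, Krt14 and Krt15 to Krt1 and Krt10. In the granular layer they make profilaggrin and its relatives, large repeat-rich proteins that begin with an S100 calcium-binding domain, and they make the precursors of the cornified envelope. Transglutaminases cross-link these precursors under the plasma membrane, and dead, flattened corneocytes remain. Filaggrin released from profilaggrin bundles keratin filaments and is later broken down into compounds that hold water in the skin.

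Of these genes 8 lie within 1369 kb on chromosome 3 (GRCm38, GENCODE release M21), in the epidermal differentiation complex, from Lor (92080271 to 92083142, minus strand) to Tchh (93442330 to 93449077, plus strand). The S100-fused genes Flg2 (93197278 to 93221391), Flg (93273523 to 93293686), Hrnr (93319749 to 93333570), Rptn (93393699 to 93399442) and Tchh follow each other on the plus strand. Cnfn lies on chromosome 7 (25367620 to 25369724) and Tgm1 on chromosome 14 (55700009 to 55713926), both on the minus strand. A noncoding model, Gm37245, runs opposite to Hrnr, Rptn and Tchh, and whether the counting used strand is not given in the sources used here. The repeats of Flg, Flg2 and Hrnr resemble each other, so reads could be split among them or dropped, and their levels are uncertain to that extent.

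Start-proximal sequence is shown for 6 of the 8 chromosome 3 genes, because these neighbours differed in different directions in the data below. Each line gives the 150 bases before the RefSeq transcription start (GRCm38.p6), 5′ to 3′ on the gene's strand. Capitals mark matches to TGANTCA, searched on both strands. TGANTCA is a loose form of the site that AP-1 factors bind, which has C or G in place of N.
Flg (chr3:93273396-93273545, plus strand): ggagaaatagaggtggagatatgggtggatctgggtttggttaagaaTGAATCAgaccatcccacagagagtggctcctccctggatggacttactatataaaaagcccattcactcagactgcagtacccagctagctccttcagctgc
Flg2 (chr3:93197123-93197272, plus strand): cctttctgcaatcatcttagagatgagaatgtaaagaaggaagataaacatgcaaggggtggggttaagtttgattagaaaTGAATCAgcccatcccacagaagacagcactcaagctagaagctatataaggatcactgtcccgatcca
Hrnr (chr3:93319599-93319748, plus strand): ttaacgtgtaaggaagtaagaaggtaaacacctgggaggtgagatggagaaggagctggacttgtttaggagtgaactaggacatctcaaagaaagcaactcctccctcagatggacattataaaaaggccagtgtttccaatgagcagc
Rptn (chr3:93393549-93393698, plus strand): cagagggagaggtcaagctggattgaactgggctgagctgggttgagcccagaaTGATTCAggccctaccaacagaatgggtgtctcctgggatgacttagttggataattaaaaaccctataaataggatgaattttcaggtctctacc
Lor (chr3:92083143-92083292, minus strand): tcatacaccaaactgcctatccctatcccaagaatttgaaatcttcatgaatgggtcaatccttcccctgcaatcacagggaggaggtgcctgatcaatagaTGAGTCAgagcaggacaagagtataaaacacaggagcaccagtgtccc
Ivl (chr3:92573736-92573885, minus strand): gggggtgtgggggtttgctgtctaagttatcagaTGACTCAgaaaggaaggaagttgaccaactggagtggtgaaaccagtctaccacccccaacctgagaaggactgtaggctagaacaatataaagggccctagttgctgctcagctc
RefSeq promoters matched 9 of the 10 genes by symbol. TGANTCA was found within 250 bases before the start in 5 of these 9 genes, Flg, Flg2, Rptn, Lor and Ivl, and in 6.75% of the 32851 promoters of the table. The match began 103 bases before the start in Flg, 69 in Flg2, 96 in Rptn, 48 in Lor and 116 in Ivl. In Flg and Flg2 the letters were the same, TGAATCA. Rptn had TGATTCA, and only Lor (TGAGTCA) and Ivl (TGACTCA) held C or G in place of N. The core of a TATA box, TATAAA, was found in Flg, Hrnr, Rptn, Lor and Ivl, against 12.4% of all promoters. Ivl, the gene that was lower in both ablated libraries, and Lor, which was higher in both, each held TGANTCA and TATAAA.

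After filtering, the 1-day control library kept 22298 cells and its ablated counterpart 23651, and the 1-week pair kept 19879 and 15626, with 58319815 to 111358752 gene UMIs (unique molecular identifiers, 1 per captured RNA molecule) per library. Trp63, the gene that encodes ΔNp63, was lower in both ablated libraries, at 114 CPM (UMIs of a gene divided by all gene UMIs of the library, scaled to 1e6) against 395 CPM in the control at 1 day, and at 141 against 425 CPM at 1 week. The keratinocyte identity of the samples showed in Krt14, at 3622 to 8853 CPM in the 4 libraries. Libraries of a time point shared 299 cell barcodes at 1 day and 661 at 1 week, and libraries of different time points 9 to 18. The kits differed between time points, so the counts across them are not a baseline. The source of shared barcodes was not tested. The labels name both sexes, but Xist, which is made from the inactive X chromosome, gave 0 to 4 UMIs in any set of 1-day cells divided by hashtag, where Ddx3y from the Y chromosome gave 1230 to 5126. At 1 week both kinds of transcript were present. The median log2 ratio over all genes was -0.05 (1 day) and 0.09 (1 week), so no rescaling was applied to the values below.

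One day after ablation, 9 of the 10 genes were at least 2-fold higher in the ablated library, and the exception, Ivl, was lower. Over all genes with at least 50 UMIs, 4.67% were at least 2-fold higher and 3.31% at least 2-fold lower, and none of the 10 passed 2-fold lower. The median log2 ratio of the 10 genes was 2.11. Together they made up 0.0836% of all control and 0.322% of all ablated gene UMIs. A sum over a library cannot separate more cells of a type from more RNA per cell.

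Among the S100-fused genes at 1 day, Flg, which encodes profilaggrin, went from 14.8 CPM (14.0 to 15.5) without ablation to 216 CPM (213 to 218) with it, for a log2 ratio of 3.87. Tchh, trichohyalin, a structural protein best known from the inner root sheath of hair follicles, went from 6.43 to 61.6 CPM (log2 ratio 3.26). Rptn, repetin, went from 1.75 to 20.6 CPM (log2 ratio 3.56), with 195 UMIs behind the control value. These genes were low in control epidermis and differed most. Flg2 and Hrnr, the filaggrin relatives, had log2 ratios of 1.66 (63.5 to 200 CPM) and 1.61 (45.5 to 139 CPM), so the 5 neighbours did not differ by one common factor.

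Of the envelope precursors at 1 day, Lor, loricrin, a major component of the envelope, stood at 169 against 994 CPM (log2 ratio 2.55, 2.53 to 2.58). Crct1, cysteine-rich C-terminal 1, was at 157 against 947 CPM (log2 ratio 2.59). Cnfn, cornifelin, was at 154 against 436 CPM (log2 ratio 1.5). Ivl, involucrin, an early precursor laid down from the spinous layers on, went the other way, from 192 to 105 CPM, a log2 ratio of -0.87 (-0.90 to -0.83). Tgm1, the membrane-bound transglutaminase that links the precursors, was at 31.8 against 99.1 CPM (log2 ratio 1.64). Without doublet removal the log2 ratio of Lor was 1.06, that of Crct1 1.35 and that of Flg 2.73. That step took out 26.8% of control and 25.8% of ablated barcodes past the other filters. In the cells with under 2000 UMIs Ivl had a log2 ratio of 0.76, the opposite sign, and Tchh one of 1.37, below the 2.26 of Flg2 and the 2.69 of Hrnr in those cells. Flg (4.93), Rptn (5.94), Cnfn (2.58) and Tgm1 (2.26) had higher ratios there than in all cells. That set was not matched in depth, since its cells began at 500 UMIs in the control and at 1368 UMIs in the ablated library.

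One week after ablation the same count held: 9 genes were at least 2-fold higher and Ivl was at least 2-fold lower. Over all genes the shares were 8.91% higher and 4.37% lower, and the median log2 ratio of the 10 was 2.79. The genes made up 0.142% of control and 0.883% of ablated gene UMIs.

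The widest difference at 1 week was in Rptn, from 1.01 CPM (73 UMIs) to 177 CPM (10319 UMIs), a log2 ratio of 7.45 (7.11 to 7.80). Tchh followed, from 4.54 to 333 CPM (log2 ratio 6.20), then Flg, from 15 to 422 CPM (log2 ratio 4.81). Hrnr was at 15.6 against 154 CPM (log2 ratio 3.30) and Flg2 at 88.1 against 368 CPM (log2 ratio 2.06). As over all cells at 1 day, Flg, Rptn and Tchh had higher ratios than Flg2 and Hrnr.

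Lor went from 575 to 4080 CPM at 1 week (log2 ratio 2.83) and Crct1 from 348 to 2342 CPM (log2 ratio 2.75). Cnfn went from 145 to 698 CPM (log2 ratio 2.27). Ivl was at 58.3 CPM after ablation against 174 CPM without it, for a log2 ratio of -1.58. Loricrin and involucrin are both envelope precursors, yet they lay on opposite sides in both time points. Tgm1 was at 53.5 against 199 CPM (log2 ratio 1.90). When granular-like clusters were left out, the log2 ratio was 1.46 for Cnfn, 1.17 for Tgm1, 1.31 for Flg2, 2.54 for Hrnr and 6.44 for Rptn. Cells with under 2000 UMIs were not clustered, so all of them stayed in this set, whatever their type. In the ablated library they held 22.7% of Hrnr, 23.6% of Flg2 and 33.1% of Rptn UMIs. These are therefore not ratios outside granular cells. In cells with under 2000 UMIs the log2 ratio was 0.82 for Flg2, 1.13 for Lor, 1.54 for Crct1, 2.28 for Hrnr, 3.91 for Flg and 5.77 for Rptn. These cells began at 500 UMIs in the control and at 1059 UMIs in the ablated library, so depth was again not matched.

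**Figure D1:**
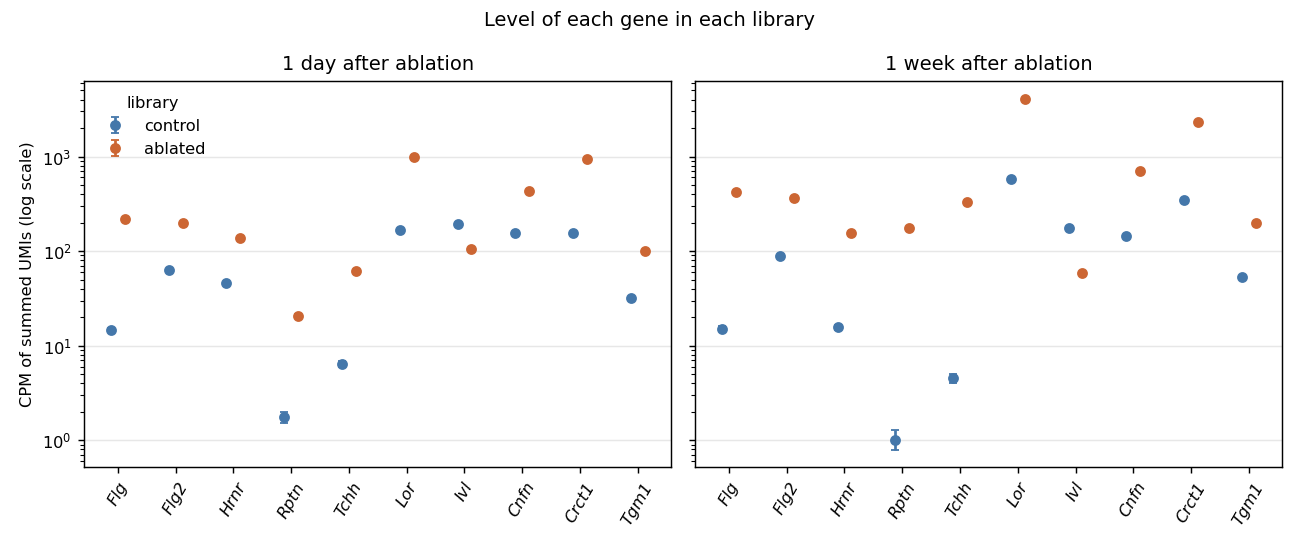
Level of each of the 10 genes, as CPM of summed UMIs on a log axis, in the control (blue) and ablated (orange) library at 1 day (left) and 1 week (right). Bars are exact 95% intervals for counting error, mostly smaller than the points. In both panels every gene but Ivl lies higher in the ablated library, and Rptn and Tchh at 1 week lie farthest apart.

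The 1-day libraries carried antibody hashtags, tags bound to cells before pooling, and 3 of them divided each library into sets of cells. The labels do not say what the hashtags marked, so the sets are not replicates, but they show how far a level varied inside a library. A cell was assigned when 1 hashtag led by at least 2-fold, a margin set after the data were seen. This placed 4315 to 4668 control and 2844 to 2988 ablated cells per hashtag. No hashtag led in 39.0% of control and 63.3% of ablated cells.

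There were 7 genes higher in all 3 ablated sets than in all 3 control sets, Flg, Hrnr, Tchh, Lor, Cnfn, Crct1 and Tgm1, and 16.7% of all genes did the same. Over all genes 18.9% were lower in all 3, and none of the 10 was. Flg was at 12.8, 16.8 and 17.4 CPM in the control sets and at 105, 327 and 89.9 CPM in the ablated sets. Tchh was at 5.5, 3.94 and 5.73 CPM against 46.7, 106 and 30.9 CPM. The control sets of both genes lay close together, while the ablated set with hashtag 2 stood above the rest.

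Lor was at 46.8, 330 and 199 CPM in the control sets and at 827, 605 and 903 CPM in the ablated sets. Crct1 was at 78.4, 272 and 172 CPM against 732, 844 and 805 CPM. For both genes the control set with hashtag 1 was the lowest, and the control sets spread more (7.05-fold for Lor, 3.47-fold for Crct1) than the ablated ones (1.49-fold and 1.15-fold).

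Flg2, Rptn and Ivl overlapped between the libraries. Flg2 ranged from 22.1 to 112 CPM in the control sets and from 106 to 241 CPM in the ablated sets. Rptn was at 1.27, 3.22 and 2.53 CPM in the control sets and at 7.20, 37.2 and 3.09 CPM in the ablated sets, so only the ablated set with hashtag 2 lay far above the control sets. Ivl ranged from 144 to 275 CPM in the control sets and from 81.6 to 177 CPM in the ablated sets. Within each hashtag Ivl was lower in the ablated cells, at 144 against 101, 275 against 81.6 and 272 against 177 CPM, although hashtags do not pair the libraries.

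**Figure D2:**
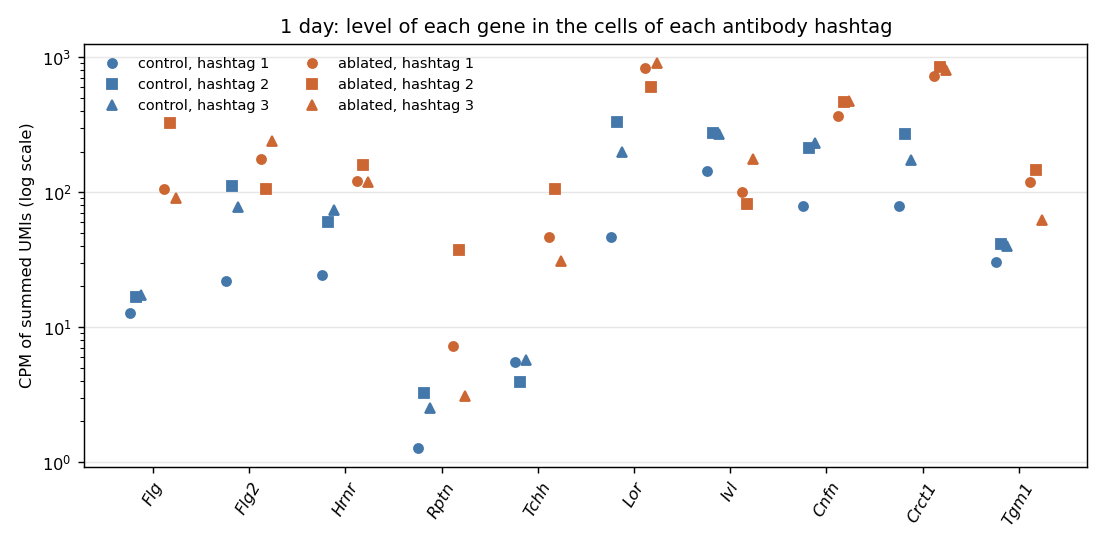
Level of each gene at 1 day, as CPM on a log axis, in the cells of hashtags 1 (circles), 2 (squares) and 3 (triangles) of the control (blue) and ablated (orange) library. Each point is the sum over one set of cells. Flg, Hrnr, Tchh, Lor, Cnfn, Crct1 and Tgm1 show no overlap between the libraries, and Flg2, Rptn and Ivl do.

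No hashtags were present at 1 week, but cells could be divided by sex-linked transcripts, a split chosen after the data were seen. In cells with Xist and no Y-linked UMIs, and in cells with Y-linked and no Xist UMIs, all 10 genes had the sign of the whole library. Ivl had log2 ratios of -1.92 and -1.64 in these sets. Flg had log2 ratios of 4.08 and 6.41, and Flg2 of 2.64 and 1.18, so the sizes differed between the sets. In the 986 control and 347 ablated cells with both kinds of transcript, Flg2 was at 131 and 128 CPM, a log2 ratio of -0.03. Cell makeup was not matched between them.

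To compare shares of positive cells at equal depth, each cell was thinned to 2000 UMIs, which left out 3732 (control) and 4311 (ablated) cells of the 1-day libraries and 11426 and 10441 of the 1-week ones. A positive cell held at least 1 UMI of the gene. At 1 day, 9 genes had a higher share of positive cells in the ablated library, with intervals that did not overlap, and Ivl had a lower one. Of all genes 21.8% were higher and 24.5% lower by this measure. At 1 week the counts were again 9 and 1, with 25.2% and 15.5% over all genes, but after thinning to 4000 UMIs 8 genes were higher, and the difference for Flg2 was -0.478 percentage points.

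Crct1 was positive in 6.85% (6.49 to 7.22) of 1-day control cells and 25.1% (24.5 to 25.7) of 1-day ablated cells, and in 11.6% and 40.7% a week after ablation. Flg was positive in 0.878% and 7.45% at 1 day and in 1.1% and 16.1% at 1 week. Tchh was positive in 1.15% and 6.56% at 1 day and in 0.840% and 21.4% at 1 week. All 3 genes were thus detected in more ablated than control cells of equal depth. Rptn stayed rare at 1 day, at 0.156% and 1.56%, and was found in 10.7% of 1-week ablated cells, against 0.0592% (5 of 8453) of control cells. Ivl was positive in 12.8% and 9.37% at 1 day and in 14.6% and 7.89% at 1 week.

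Unthinned, the share of Crct1-positive cells was 11.9% and 33.1% at 1 day, and that of Ivl-positive cells 17.9% and 13.0%. UMIs per positive cell also differed for Lor, with a 1-day mean of 3.22 (control) and 8.03 (ablated) and a 1-week mean of 4.90 and 21.0. Lor-positive cells thus held more of its UMIs on average in the ablated libraries. At 1 day the share of Lor-positive cells lay at background, as given below, so the 1-day means are not read as Lor per expressing cell. Tgm1 hardly differed in UMIs per positive cell, with means of 1.21 and 1.33 at 1 day and of 1.28 and 1.55 at 1 week.

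Free RNA in the droplets bears on these shares, and immune-like cells, which should make none of these proteins, serve as the background. Whether that background is free RNA alone was not tested, and its 2 clusters at 1 day differed, as given below. At 1 day 18.9% (15.7 to 22.5) of 544 immune-like ablated cells held a Lor UMI, against 20.5% of all ablated cells. In the control the values were 10.4% (7.52 to 14.0) of 374 immune-like cells and 8.47% of all cells, so at 1 UMI the 1-day share of Lor-positive cells lay at background and is not read as expression. Immune-like cells had median depths of 2723.5 (control) and 3076 (ablated) UMIs before thinning, and all cells 4606 and 3788. Of the other genes in the 1-day ablated library, Cnfn stood at 21.6% against 14.7% in immune-like cells, Crct1 at 25.1% against 13.2%, Tgm1 at 13.0% against 6.43% and Flg at 7.45% against 3.12%. Fibroblast-like cells, 185 in that library, were positive in 18.9% for Cnfn and 11.4% for Tgm1, little below all cells, and in 7.57% for Tchh, no lower than the 6.56% of all cells. Rptn, at 1.56% of all cells, and Ivl, at 9.37%, lay inside the immune-like intervals (0.406% to 2.39% and 5.15% to 9.67%). In the control Flg, Flg2, Rptn, Tchh and Crct1 lay inside theirs. Library-wide shares inside the interval are not read as expression, a rule that does not bear on levels within clusters.

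Cells with at least 5 UMIs of 2000 stand farther from that level. For Lor they were 0.549% of all 1-day control and 3.87% of all 1-day ablated cells, and 0 of 374 and 12 of 544 (2.21%) immune-like cells. For Crct1 they were 1.24% and 7.10%, against 0.535% and 2.39% of immune-like cells. Summed over the immune-like clusters, Lor was at 36.3 CPM (control) and 290 CPM (ablated) and Flg at 5.00 and 71.6 CPM, and the 2 immune-like clusters differed. In cluster 20, led by Cd207 and MHC class II genes of Langerhans cells, Lor was at 44.2 and 89.2 CPM and Flg at 2.60 and 15.4 CPM. In cluster 22, led by T cell genes such as Cd3g and Trdc, Lor was at 28.9 and 376 CPM and Flg at 7.23 and 95.6 CPM. Both genes were higher after ablation in both clusters, by different amounts, and the immune-like shares above were not divided by cluster. In cluster 1, of 3994 ablated and 2 control cells, led by Krt8 and Krt18, Lor was at 68.8 CPM, Crct1 at 67.1 CPM, Flg at 9.83 CPM and Tchh at 39.1 CPM. The part of free RNA in the 1-day differences was not tested.

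At 1 week the background in the clusters named immune-like was low. Cluster 33, of 82 control and 22 ablated cells and led by Cd207 and MHC class II genes, stayed unnamed and was not part of it. There Crct1 was at 6.42 and 286 CPM, Lor at 8.56 and 96.7 CPM, Tchh at 0 and 83.8 CPM and Ivl at 105 and 8.60 CPM. After thinning, none of 159 immune-like control cells held Flg, Tchh, Rptn, Hrnr, Cnfn or Tgm1. This allows a share of up to 1.89% by a limit of 3 cells and 2.29% by the exact interval. Of 87 immune-like ablated cells none held Tchh, Rptn, Hrnr or Flg2, which allows up to 3.45% and 4.15% in the same way. Unthinned, these 87 cells held 0 Tchh, 6 Rptn, 2 Hrnr and 4 Flg2 UMIs. The control shares of Flg, Hrnr, Rptn and Tchh and the ablated share of Ivl lay inside the immune-like intervals and are not read as expression. The highest immune-like share at 1 week was 5.75% for Lor in the ablated library, where 31% of all cells were positive. Endothelial-like cells, which should also lack these proteins, differed between their 2 clusters. In cluster 30, of 102 ablated and 7 control cells with a median of 2193 UMIs, Lor was at 403 CPM, Crct1 at 619 CPM, Cnfn at 333 CPM, Flg at 212 CPM and Tchh at 110 CPM. The 45 ablated cells of cluster 39 held 28 Lor, 14 Crct1, 5 Cnfn, 0 Flg and 3 Tchh UMIs, and its 40 control cells held 0 to 5 UMIs of each. Immune-like ablated cells were at 71.3 CPM for Lor, 37.8 CPM for Crct1 and 0 CPM for Tchh. The part of free RNA in the 1-week differences was not tested. Median depths before thinning were 3030 and 5158 UMIs in immune-like cells and 5687 and 4550 in all cells.

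**Figure D3:**
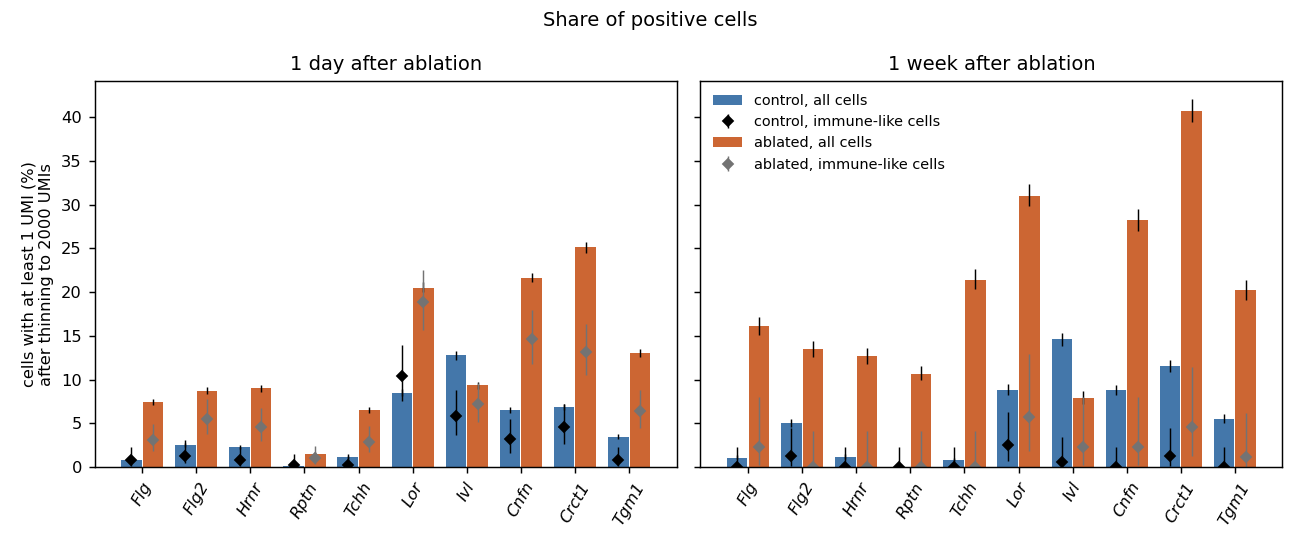
Percentage of cells with at least 1 UMI of each gene after thinning to 2000 UMIs, in the control (blue bars) and ablated (orange bars) library at 1 day (left) and 1 week (right), with exact 95% binomial intervals. Diamonds give the same share in immune-like cells, the background. At 1 day the diamond for Lor reaches its bar, and at 1 week the diamonds stay at or under 5.75%.

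Several of the genes were found in one cell more often in the ablated libraries. At least 1 of the 10 was detected in 29.2% of the 1-day control and 55.5% of the 1-day ablated cells, and in 28.6% and 56.2% of the 1-week ones. At least 5 were detected in 1.28% and 6.87% at 1 day and in 1.74% and 19.6% at 1 week. Among immune-like cells at least 1 was detected in 22.7% (control) and 45.8% (ablated) at 1 day, close to all cells, and in 5.66% and 11.5% at 1 week. In them at least 5 were detected in 0.267% and 3.12% at 1 day and in no cell of either library at 1 week.

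As a share of the cells with either gene, Cnfn and Crct1 overlapped most of any pair in the 1-week control (31.5%, 413 cells), just above Lor and Crct1 (31.2%). In the ablated library 1320 cells held both Cnfn and Crct1, 58.6% of those with either. Relative to independence the pair was seen 4.78 times as often in the control and 2.22 times in the ablated library. Lor and Crct1 were found together in 1428 ablated cells at 1 week, 62.3% of those with either and 2.18 times the number under independence, against 4.75 times in the control. Of 557 Rptn-positive ablated cells at 1 week, 93.5% also held Crct1, 69.1% Tchh and 66.6% Flg, but 25.5% held Flg2. Hrnr, which with Tchh flanks Rptn among these genes on chromosome 3, was held by 43.4%. Co-detection of a pair also grows with the free RNA level and with the share of positive cells, and it is given as a description.

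Clusters of cells, made without the 10 genes and without the other genes of the lists below, located the expression. Granular-like clusters were named from genes such as Casp14, Klk7 and Alox12b and held 166 control and 580 ablated cells of 18566 and 19340 at 1 day. These few cells held 72.9% of all control and 79.7% of all ablated Lor UMIs, 74.5% and 70.6% of Flg2 UMIs, and 58.6% and 45.9% of Flg UMIs, counted over all filtered cells. Of Ivl UMIs they held 7.04% and 8.81%, and of Tchh UMIs 0.419% and 1.62%. Most loricrin and filaggrin-2 transcripts were thus in granular-like cells in both libraries, while involucrin and trichohyalin lay mostly outside these clusters. Of Rptn UMIs granular-like cells held 11.3% and 13.1%. Cluster 21, of 5 control and 485 ablated cells, was led by genes that include Krt6b, S100a8 and S100a9. Among clusters with at least 50 ablated cells it was highest for Rptn (169 CPM), Tchh (351 CPM) and Tgm1 (252 CPM, against 249 CPM in cluster 17). In the control Rptn was highest in cluster 6, at 26.0 CPM.

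Cluster 17 held most granular-like cells at 1 day, 162 control and 476 ablated. In it Flg was at 502 and 2456 CPM (log2 ratio 2.29, 2.18 to 2.40), Lor at 7802 and 13257 CPM (log2 ratio 0.76) and Crct1 at 5099 and 8146 CPM (log2 ratio 0.68). Ivl was at 975 and 293 CPM, a log2 ratio of -1.73. Rptn was at 14.3 and 90.2 CPM (log2 ratio 2.66). Differences were smaller for Cnfn (log2 ratio 0.26), Hrnr (0.22), Tgm1 (0.15, -0.04 to 0.33) and Flg2 (0.07), with Flg2 at 3207 and 3356 CPM. Tchh had too few control UMIs for a ratio: over all granular-like cells it gave 3 control UMIs (1.92 CPM) and 98 ablated UMIs (27.3 CPM). Cluster 26 held 104 ablated and 4 control cells, with Lor at 56914 CPM and Crct1 at 42196 CPM, and with it the ratios of the whole class were 1.30 for Lor and 1.41 for Crct1.

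The class itself depended on how finely cells were clustered. At resolution 2 it took in 163 control and 1845 ablated cells, and its log2 ratios were -0.33 for Lor, -1.5 for Flg2, -1.34 for Hrnr, -0.82 for Cnfn and 0.07 for Crct1, so a sign inside the class is not read for these 5 genes. Flg, at 2.24, 2.13 and 0.92 at resolutions 0.5, 1 and 2, and Ivl, at -1.93, -1.93 and -2.23, kept theirs.

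Suprabasal-like cells at 1 day lay in different clusters in the 2 libraries, clusters 10 and 11 in the control and cluster 5 in the ablated one. In cluster 10, of 935 control and 387 ablated cells, Ivl was at 950 and 1336 CPM (log2 ratio 0.49), Flg at 13.7 and 51.8 CPM (log2 ratio 1.91) and Crct1 at 257 and 1321 CPM (log2 ratio 2.36). In cluster 11, of 1204 and 100 cells, Ivl was at 270 and 767 CPM (log2 ratio 1.51). Cluster 5, of 4 control and 2206 ablated cells, held Ivl at 127 CPM, Flg at 236 CPM and Crct1 at 973 CPM. Over the whole class the log2 ratio of Ivl was -1.0 at resolution 1, but 0.65 at resolution 0.5 and 0.96 at resolution 2, where the class held 429 and 465 ablated cells in place of 2693. Involucrin was thus higher after ablation in the suprabasal-like clusters both libraries share, while it was lower in cluster 17 and in the library as a whole. Over the 21 clusters compared at 1 day, by intervals without 0, Ivl was higher in 5 and lower in 8. Cnfn was higher in 21, Crct1 in 20, Flg and Lor in 18 and Flg2 in 16 (lower in 1). Hrnr was higher in 14, Tchh in 13, Tgm1 in 11 and Rptn in 10. The clusters compared included immune-like ones.

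In basal-like cells, 4902 and 415, Ivl was at 12.1 and 46.4 CPM (log2 ratio 1.94, 1.55 to 2.32). Ivl in the immune-like clusters was at 13.0 and 12.3 CPM (cluster 20) and at 129 and 148 CPM (cluster 22), so the basal-like control level is no higher than in cells that should lack it, and the ablated level lies between those of the 2 immune-like clusters.

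At 1 week the classes hardly overlapped: 37 control and 843 ablated cells were granular-like and 1006 control and 0 ablated cells were suprabasal-like, of 8453 and 5185. These counts cover only cells with at least 2000 UMIs. The 11426 shallower control cells had Lor at 1429 CPM, and held 36.9% of the Lor and 32.6% of the Flg2 UMIs of that library. The 10441 shallower ablated cells held 19.5% and 23.6%. How many of the shallower cells were granular is not known. The counts also rest partly on the naming. Cluster 26, of 114 control and 19 ablated cells, got no class. Among clusters with at least 50 control cells it was highest in the control for Flg, Hrnr, Lor (1618 CPM), Cnfn and Crct1 (1501 CPM). The 37 control cells held Lor at 32430 CPM and Crct1 at 17067 CPM, which was 49.0% and 42.7% of the UMIs of these genes in that library, and the 843 ablated cells held them at 14973 and 7959 CPM. Cluster 1, of 479 control and 495 ablated cells and led by Krt79, a keratin of the upper hair follicle and sebaceous duct, had Tchh at 7.69 and 59.0 CPM (log2 ratio 2.94), Rptn at 5.33 and 30 CPM (log2 ratio 2.49) and Crct1 at 294 and 626 CPM (log2 ratio 1.09). In the same cells Cnfn was at 343 and 98.4 CPM, a log2 ratio of -1.80 and the opposite sign of the library, and Ivl at 356 and 215 CPM (log2 ratio -0.73). Cluster 7, of 135 and 301 cells and led by genes of dividing cells that include Mki67 and Top2a, had Tchh at 10.7 and 195 CPM (log2 ratio 4.2) and Crct1 at 6.40 and 71.5 CPM (log2 ratio 3.48). These clusters were picked after their values were seen, and 6 others had at least 50 cells in both libraries. In those 6 Tchh ranged from 0 to 13.0 CPM in control and from 0 to 22.1 CPM in ablated cells, Rptn was at 0 in control and from 0 to 15 CPM in ablated cells, and Crct1 reached at most 83.6 CPM (control) and 137 CPM (ablated). Over all 8 clusters, by intervals without 0, Tchh and Rptn were each higher in 3, Crct1 in 6, and Cnfn was higher in 3 and lower in 1.

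The ablated granular-like clusters at 1 week did not share one profile. Cluster 18, of 161 ablated cells, held Lor at 64541 CPM, Crct1 at 28972 CPM, Flg at 2750 CPM and Flg2 at 5507 CPM, but Rptn at 44.6 CPM and Tchh at 3.52 CPM. Cluster 17, of 250 cells, held Rptn at 3843 CPM, Tchh at 1348 CPM and Flg at 3417 CPM, with Lor at 6296 CPM. Cluster 20, of 161 cells and led by genes that include Krt6a and Krt6b, keratins of wounded and hyperproliferative epidermis, held Tchh at 1465 CPM, Flg at 1296 CPM and Lor at 409 CPM. Clusters 17 and 20 held no control cell. The highest Tchh level, 3334 CPM, was in cluster 45, of 63 ablated and 0 control cells, which was led by genes that include the simple epithelial keratins Krt8 and Krt18. Summed with the larger cluster 16, of 252 ablated cells and also led by Krt8, Tchh was at 506 CPM. A cluster found in 1 library cannot be told apart from a trait of that library.

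**Figure D4:**
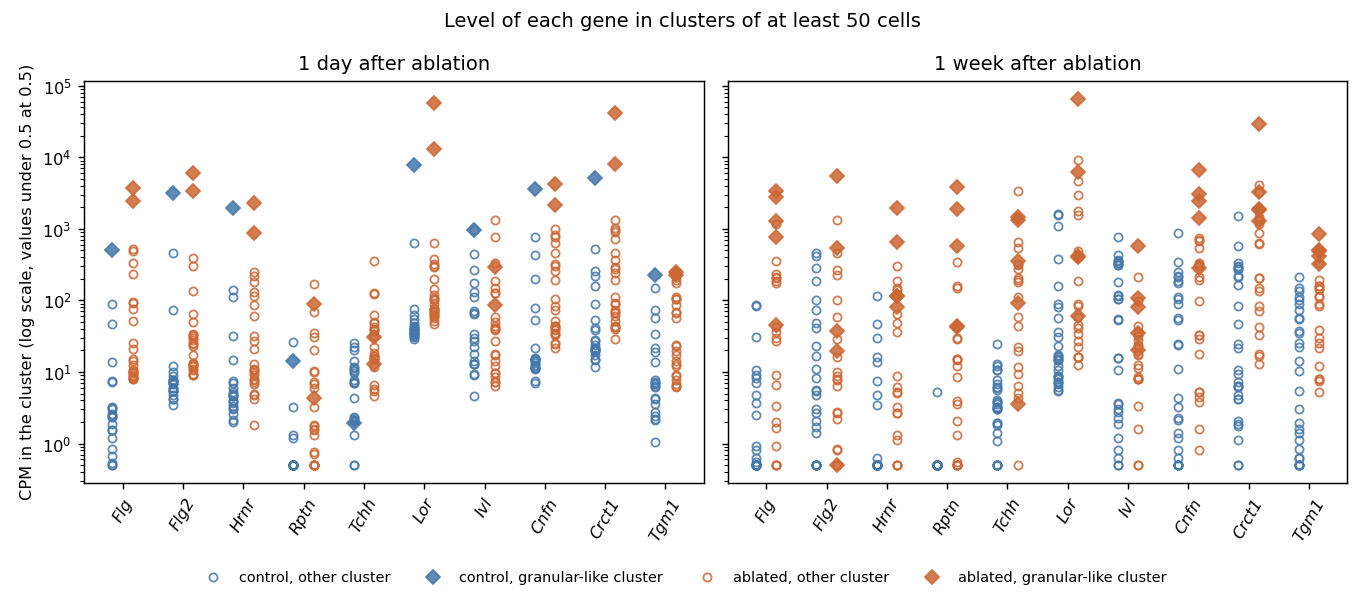
Level of each gene, as CPM on a log axis (values under 0.5 drawn at 0.5), in every cluster with at least 50 cells of the control (blue) or ablated (orange) library at 1 day (left) and 1 week (right). Filled diamonds are granular-like clusters and open circles all others. Lor and Crct1 are highest in granular-like clusters, except that the 37 granular-like cells of the 1-week control are too few to be drawn, and the highest Tchh circle at 1 week, at 3334 CPM, is not one of them.

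Co-expression with basal keratins was read from the same thinned cells. A cell was called basal keratin-high when Krt5 and Krt14 together gave at least 10 of its 2000 UMIs, which held for 54.0% of the control and 38.7% of the ablated cells 1 day after ablation and for 76.5% and 74.5% after 1 week. Of immune-like cells 10.7% and 19.3% were basal keratin-high at 1 day, and 0 of 159 (up to 2.29% by the exact interval) and 1 of 87 (1.15%) at 1 week. Summed over libraries, Krt5 was at 2045 and 964 CPM at 1 day and at 6361 and 3950 CPM at 1 week. Krt14 was at 4889 and 3622 CPM at 1 day but at 6535 and 8853 CPM at 1 week, so the basal keratins themselves did not move together.

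At 1 day, Hrnr, Cnfn and Tgm1 alone had shares of positive cells above the immune-like interval in both libraries. The values of the other 7 genes are given as counts, and no co-expression is read from them. Hrnr passed narrowly in the control, at 2.35% (2.14 to 2.58) against an upper limit of 2.33%. Fibroblast-like ablated cells were positive in 18.9% for Cnfn and 11.4% for Tgm1, against 21.6% and 13.0% of all ablated cells. The share of basal keratin-high cells was higher in ablated positive cells, without overlap of intervals, for 2 genes, Rptn (3.45% of 29 and 28.1% of 302 cells) and Tgm1 (14.0% and 19.9%). Over all genes this held for 1.02%. It was lower for 3 genes, Flg2 (32.4% and 20.7%), Lor (46.8% and 28.6%) and Crct1 (30.2% and 24.5%), and for 65.7% of all genes. Both Tgm1 values lay inside the basal keratin-high intervals of immune-like cells, 7.75% to 14.3% (control) and 16.1% to 22.9% (ablated). The Tgm1 difference changed sign at a limit of 20 keratin UMIs and with Krt15, and those of Flg2 and Crct1 did at 5 keratin UMIs.

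These 1-day counts rested on the limits used. With a limit of 5 UMIs the count of genes with a higher share was 6, with 20 UMIs it was 0, and without doublet removal it was 0.

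At 1 week, Rptn and Tchh had the highest shares of basal keratin-high cells among positive cells of the ablated library. Positive cells also lay above negative cells there for Flg (83.1% against 72.8%), Cnfn (80.6% against 72.1%), Lor (79.1% against 72.4%) and Crct1 (78.8% against 71.5%). They lay below for Flg2, Hrnr, Ivl and Tgm1. Of Tchh-positive ablated cells 94% (92.4 to 95.3) were basal keratin-high, against 69.2% of negative cells, and in the control 81.7% (70.7 to 89.9) of 71 positive cells were. Of 557 Rptn-positive ablated cells 94.8% (92.6 to 96.5) were basal keratin-high, against 72.0% of negative cells, with 1 of 5 in the control. Since the control shares of both genes lay at background, the control values are counts, and no change in co-expression is read from them. These were the 2 genes with a higher share, against 2.34% of all genes, but the count was 6 at a limit of 20 keratin UMIs and 0 after thinning to 4000 UMIs. The share was lower for Flg2 (86.4% and 72.0%), Lor (88.1% and 79.1%) and Crct1 (86.1% and 78.8%), 3 of 10 against 6.37% of all genes. All 3 of these differences changed sign at a limit of 20 keratin UMIs.

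The keratin behind this was Krt14. Tchh-positive ablated cells at 1 week held a mean of 25.1 Krt14 UMIs of 2000, against 13.0 in negative cells, but 6.80 against 8.18 Krt5 UMIs and 3.48 against 6.81 Krt15 UMIs. Rptn-positive cells held 28.5 against 14.0 Krt14 UMIs, 5.60 against 8.16 Krt5 UMIs and 2.70 against 6.50 Krt15 UMIs. They also held more of the suprabasal keratin Krt1, 7.02 against 1.36 UMIs for Rptn and 5.17 against 1.1 for Tchh. Beside negative cells, these cells thus held more of 1 basal keratin and less of the other 2. The pattern was not particular to them. Flg-positive ablated cells held 20.8 against 14.5 Krt14, 5.96 against 8.26 Krt5 and 3.41 against 6.61 Krt15 UMIs. Cnfn, Hrnr, Crct1, Tgm1 and Ivl had the same directions. For Lor, Krt14 hardly differed (15.6 against 15.5), and for Flg2 it was lower (15.1 against 15.6). With Krt15 in place of Krt5 and Krt14, the share of Tchh-positive cells that were basal keratin-high was -19.5 percentage points in the ablated minus the control library, and no gene was counted as higher.

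Read from the other side, basal keratin-high cells at 1 week held every gene but Ivl more often after ablation, as did all cells. Of these cells 0.896% (control) and 27.1% (ablated) were Tchh-positive, against 0.840% and 21.4% of all cells. For Rptn the shares were 0.0155% and 13.7%, against 0.0592% and 10.7% of all cells. For Crct1 they were 13.0% and 43.0%, against 11.6% and 40.7%. Ivl was lower, at 13.6% and 7.46%, against 14.6% and 7.89% of all cells. Over all cells the control shares of Tchh and Rptn and the ablated share of Ivl lay at background.

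**Figure D5:**
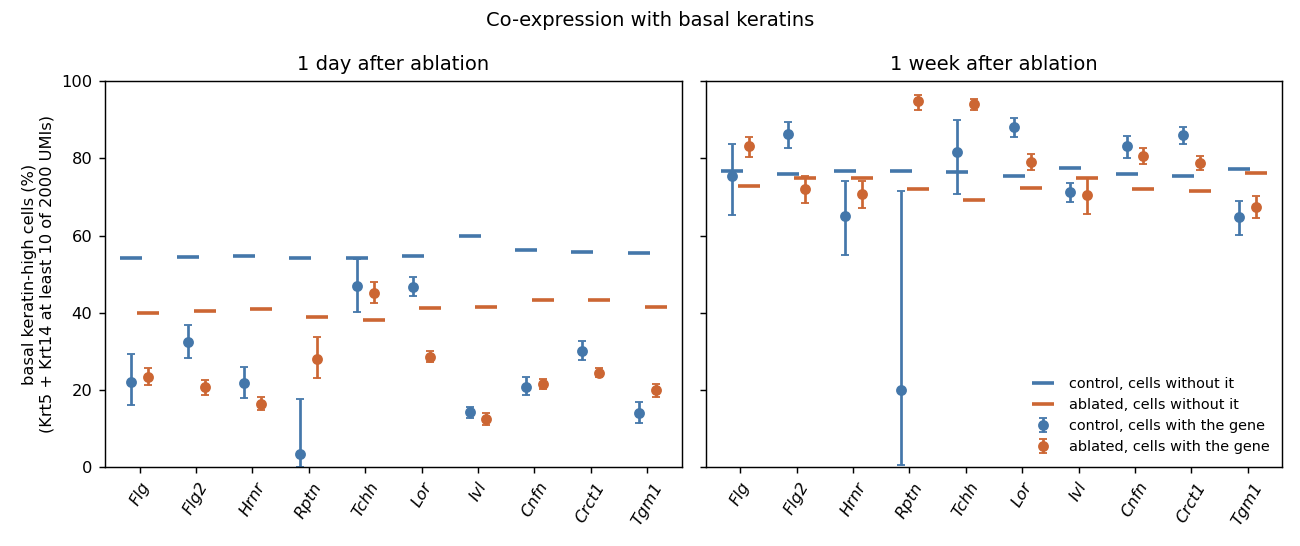
Percentage of basal keratin-high cells (Krt5 and Krt14 together at least 10 of 2000 UMIs) among cells with each gene (circles, with exact 95% binomial intervals) and among cells without it (dashes), in the control (blue) and ablated (orange) library at 1 day (left) and 1 week (right). Rptn and Tchh in the 1-week ablated library lie at 94.8% and 94%, above their dashes, and the interval of Rptn in the 1-week control is wide because it rests on 5 cells.

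Most of the other cornified envelope genes were also higher at the level of the libraries. Of 57 such genes listed, 55 were in the matrices and 48 had at least 50 UMIs at 1 day: 34 were at least 2-fold higher (4.67% of all genes were), none at least 2-fold lower, and their median log2 ratio was 3.61. At 1 week 39 of 51 were higher (8.91% of all genes) and none lower, with a median of 2.31. The highest ratios at 1 day were in Lce3f (log2 ratio 6.95, from 5 to 544 UMIs), Lce3e (0 to 251 UMIs, a log2 ratio of at least 6.57 with the 0 set to 3 UMIs) and Sprr2e (5.60), and at 1 week in Lce3f (10.49, from 1 to 1162 UMIs), Lce3d (8.89) and Lce3e (0 to 1111 UMIs, at least 8.84). Late cornified envelope (Lce) and small proline-rich (Sprr) genes are families of near copies, so reads could be split among their members. The lowest at 1 day were Cst6 (-0.26), a protease inhibitor, Evpl (-0.16) and Dsp (-0.09), and at 1 week Krtdap (-0.54), Evpl (-0.42) and Dsp (-0.42). Evpl and Dsp encode envoplakin and desmoplakin, plakins of the early envelope.

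Of 12 genes that process profilaggrin or control its processing, 10 had at least 50 UMIs. At 1 day 5 were at least 2-fold higher and at 1 week 8, against 4.67% and 8.91% of all genes, none was 2-fold lower, and the medians were 0.91 and 1.68 on the log2 scale. Klk7, a desquamation protease, was at 322 and 2952 CPM at 1 day (log2 ratio 3.20) and at 218 and 1973 CPM at 1 week (3.18). Klk5, a related protease, had log2 ratios of 2.16 and 2.12, and Asprv1, the aspartic protease that trims profilaggrin, of 1.99 and 2.46. The lowest were Blmh (0.48), Prss8 (0.51) and St14 (0.67) at 1 day and Furin (0.12), St14 (0.84) and Prss8 (1.05) at 1 week. Casp14, Asprv1, Klk5, Klk7 and Spink5 of this list were also used to name granular-like clusters.

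The genes outside these lists whose level over clusters most resembled the sum of the 10 were Cysrt1 (r = 0.95), Sdr9c7, Rnf222, Lypd5 and Krt23 (r = 0.93) over 48 clusters of a library at 1 day, and Lypd5 (r = 0.95), Il1f5, Sdr9c7, Nccrp1 and Cysrt1 (r = 0.92) over 54 at 1 week. Likeness was Pearson's r of log2(CPM + 1), and clusters of one library share its depth and free RNA. Il1f5 and Nccrp1 were also markers of the granular-like class.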

How the data were processed

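Per the file headers, Cell Ranger wrote the count matrices that the authors deposited, with raw UMI counts as whole numbers. The submitters' processing notes name Cell Ranger 5.0.1, mm10 and Seurat. The barcode and feature lists, as deposited, are text without measurements. The 10 genes, the gene lists and the tests were chosen with earlier results of these data known. Gene identifiers were matched to GENCODE release M21 (32235 of 32285).

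Kept barcodes had at least 500 UMIs, 300 genes and no more than 15% of UMIs from mitochondrial genes. The highest Scrublet scores (scanpy 1.11.5) were removed at 0.8% per 1000 barcodes, because its own threshold did not work. This took out 26.8% and 25.8% of the passing 1-day barcodes (control and ablated) and 20.0% and 14.7% of the 1-week ones. The authors' lowest UMI count per barcode was 500, 1368, 500 and 1059 (1-day control and ablated, 1-week control and ablated). Median UMIs per kept cell were 4130, 3358, 1380 and 1606 in that order.

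UMIs were summed per library and scaled to CPM. With 1 library per group no test was run: levels have exact Poisson, ratios exact conditional binomial and shares exact Clopper-Pearson intervals, and a difference was counted from 2-fold (at least 50 UMIs over both libraries, a 0 set to 3 UMIs). Scripts were tested on simulated data. Cells with at least 2000 UMIs were clustered per time point (2000 variable genes, 30 components, 15 neighbours, leidenalg 0.10.2 at resolution 1). Clusters of at least 50 cells were named from fixed markers, with limits set after the data were seen. Named genes were the 10, the 3 highest and 3 lowest of each list, and the 5 of highest likeness. TMM (edgeR 4.0.16) and DESeq2 1.42.0 scaling, other depths, thresholds, cell subsets and resolutions were alternatives.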

Additional observations from a re-analysis of the deposited data

Results flagged for a closer look

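Both 1-day matrices list an antibody hashtag, number 4, that was not used to divide the cells. It gave 2256 UMIs in the control and 1425 UMIs in the ablated library, against 3056647 to 6137708 UMIs for each of the other hashtags, and stands here because a count of 0 would allow only 3. What it marked is not stated in the labels.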

How the results depend on the processing

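Direction held for 9 of the 10 genes at 1 day and for all 10 at 1 week in the log2 ratios under each alternative run, including TMM and DESeq2 scaling, which moved every ratio by 0.04 and 0.05 at 1 day and by -0.08 and -0.09 at 1 week. The exception was Ivl at 1 day, at 0.76 in cells with under 2000 UMIs, a split chosen after the data were seen and not matched in depth. Beside these, Flg2 at 1 week was at -0.03 in the cells with both Xist and Y-linked UMIs. The lowest and highest log2 ratios were 1.06 and 2.91 for Lor at 1 day (the lowest without doublet removal), 1.13 and 3.46 for Lor at 1 week (the lowest in cells with under 2000 UMIs), 2.73 and 4.93 for Flg at 1 day and 5.77 and 8.87 for Rptn at 1 week. Called at 4-fold, 5 genes were higher at 1 day and 0 lower at 1 week, and called at 1.5-fold, 1 was lower at 1 day. By the mean of CPM per cell, 0 were lower at 1 week.

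The basal keratin counts depended on the limits used, and the cause was not tested. The number of genes with a higher share at 1 day (2) became 6 at a limit of 5 keratin UMIs, 0 at 20, 0 with Krt15, 4 with at least 2 UMIs of the gene, 0 without doublet removal and 1 in hashtag-assigned cells. At 1 week (2) it became 6 at 20 keratin UMIs, 0 with Krt15 and 0 after thinning to 4000. In percentage points of ablated minus control, Flg2 and Crct1 at 1 day turned to 3.89 and 3.09 at 5 UMIs and to 0.181 and 9.71 with at least 2 UMIs of the gene, and Tgm1 turned to -0.508 at 20 UMIs and -0.685 with Krt15. At 1 week Flg2, Lor and Crct1 turned to 3.67, 1.62 and 3.98 at 20 UMIs and Tchh to -19.5 with Krt15. The share of Flg2-positive cells at 1 week turned to -0.478 after thinning to 4000. No paired analysis was possible because each group is 1 library. Depth limits the 1-week shares, which leave out 11426 control and 10441 ablated cells.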
